A study of Homo sapiens with 8 samples.

Results

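The genes described here are those of synaptic vesicles and of regulated exocytosis, the release of vesicle content by fusion with the plasma membrane. They were taken by name from the count table: the synaptotagmins (SYT), synapsins (SYN), vesicle SNAREs (VAMP), syntaxins (STX), SNAP23, SNAP25, SNAP29 and SNAP91, the RAB3 GTPases, complexins (CPLX), syntaxin-binding proteins (STXBP), SV2 proteins, synaptophysin (SYP), and the UNC13 and RIMS families. This gave 73 of the 56303 genes in the table, and the naming rule used no measured value. The names also take in genes of other steps of membrane traffic, among them 9 syntaxins of the Golgi apparatus, endosomes, endoplasmic reticulum and autophagosomes, and SNAP91, a clathrin assembly protein that is no relative of SNAP25.

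The libraries came from SK-N-BE(2), an established human neuroblastoma cell line, in which METTL14, a subunit of the m6A writer complex, was knocked down. The arms were transduced with the pLKO.1 lentiviral vector holding either a control shRNA, called sh-NC, or one directed at METTL14, called shMETTL14, and are lines of a single cell line. Each arm had 2 cultures, and the labels do not say whether the shMETTL14 cultures 1 and 2 are repeats of 1 shRNA or carry different shRNAs. In MeRIP-seq, polyadenylated RNA is fragmented, a part is kept as input, and an antibody against N6-methyladenosine (m6A) pulls the IP library out of the remainder, so there were 8 libraries. Nothing in the labels says that the cultures were independent, and p-values measure only the spread between them.

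Total counts ran from 32027379 to 47205265 per library, and the 73 genes took 0.230% to 0.256% of them. The lineage of the cells was read from sympathoadrenal markers: all 7 of PHOX2A, HAND2, GATA3, ISL1, MYCN, TH and DBH had counts in every input, from 84 for DBH to 182675 for MYCN. Of these, 5 were higher in shMETTL14 and none lower, with TH and DBH, enzymes of catecholamine synthesis, at log2 fold changes of 1.03 and 0.84, and the summed level of the list ran from 5787 to 6022 CPM in sh-NC and from 5999 to 6100.1 CPM in shMETTL14. Of the markers of other cell types, neither of the glial ones, SOX10 and S100B, was called, at a summed 3.26 to 3.27 CPM against 2.497 to 2.83 CPM. Of the 4 mesenchymal ones, COL3A1 was higher and COL1A1 and PDGFRB were lower, the 4 together at 378 to 398 CPM against 352 CPM in both cultures. PRRX1 had input counts of 12 and 6 for sh-NC against 29 and 32 for shMETTL14. It was tested only because of its shMETTL14 counts, which favoured a rise, so nothing is read from its call. Of the immune ones PTPRC had 24 to 28 input counts, CD3E had none in sh-NC and 2 and 4 in shMETTL14, and CD68 was lower, the 3 together at 17.3 to 21.1 CPM against 13.5 to 15.2 CPM. The part of any change in the mix of cell states in the results below was not tested. In bulk RNA, fewer cells of a type and less RNA per cell cannot be told apart.

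In neurons and endocrine cells, fusion is driven by SNARE proteins: VAMP on the vesicle zips together with a syntaxin and SNAP25 on the plasma membrane. The UNC13 and RIMS proteins prepare the vesicle for fusion, complexins hold the partly zipped complex, and synaptotagmins couple it to calcium. Neuroblastoma arises from the sympathoadrenal lineage, whose mature cells use this machinery to release catecholamines from dense-core vesicles.

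METTL14 itself, on chromosome 4 from 118685368 to 118715433, checks the labels. Levels are given as CPM, counts relative to library size after edgeR's TMM scaling, and METTL14 stood at 51.6 and 50.9 CPM in the sh-NC inputs and 14.3 and 15.3 CPM in the shMETTL14 inputs. The arms did not overlap (log2 fold change -1.79, standard error 0.0663, adjusted p = 1.28e-15 in edgeR by the quasi-likelihood test, with Benjamini-Hochberg adjustment over all genes tested). Below, "edgeR adjusted p" is a p-value of that kind, a gene rose or fell where it was under 0.05, and log2 fold changes are shMETTL14 over sh-NC.

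The machinery was broadly expressed. Of the 73 genes, 63 had enough counts to be tested in the inputs, with a median level of 25.1 CPM against 8.51 CPM over all tested genes. Between genes, levels are compared as CPM per kilobase of the exonic length in the table. On that scale, in the sh-NC inputs, the highest were STX10, a Golgi and endosomal syntaxin, at 38.6 ± 1.68 CPM per kilobase (SD, n = 2), SYT11 at 30.01 ± 1.43, SV2A at 22.2 ± 0.135, CPLX2 at 20.5 ± 0.629 and CPLX3 at 19.7 ± 0.978. STX10 and SYT11 were each apart from the next gene by more than their spread, while the values of CPLX2 and CPLX3 overlapped. The lowest tested were RIMS1 at 0.0250 ± 0.00307, UNC13D at 0.0486 ± 0.0262 and SYT13 at 0.0776 ± 0.0269 CPM per kilobase. CPLX3 has to be read with care: 99.7% of its exonic bases are shared with RP11-414J4.2, an unnamed transcript of the same strand, and the counts of these genes over all libraries were 14616 and 14686.

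Within families a few members carried most of the RNA. SYT11 held 41.7% and 43.5% of the summed synaptotagmin level per kilobase in the sh-NC inputs, and SYT1, the calcium sensor of fast release, held 23.1% and 23.2%. SV2A held 84.6% and 86.5% of the SV2 level, UNC13A 72.8% in both cultures of the UNC13 level, and RIMS4 57.4% and 56.0% of the RIMS level. VAMP3, a widely expressed vesicle SNARE, held 37.9% and 37.0% of the VAMP level, against 6.96% and 7.57% for VAMP2, the main vesicle SNARE of neurons.

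**Figure D1:**
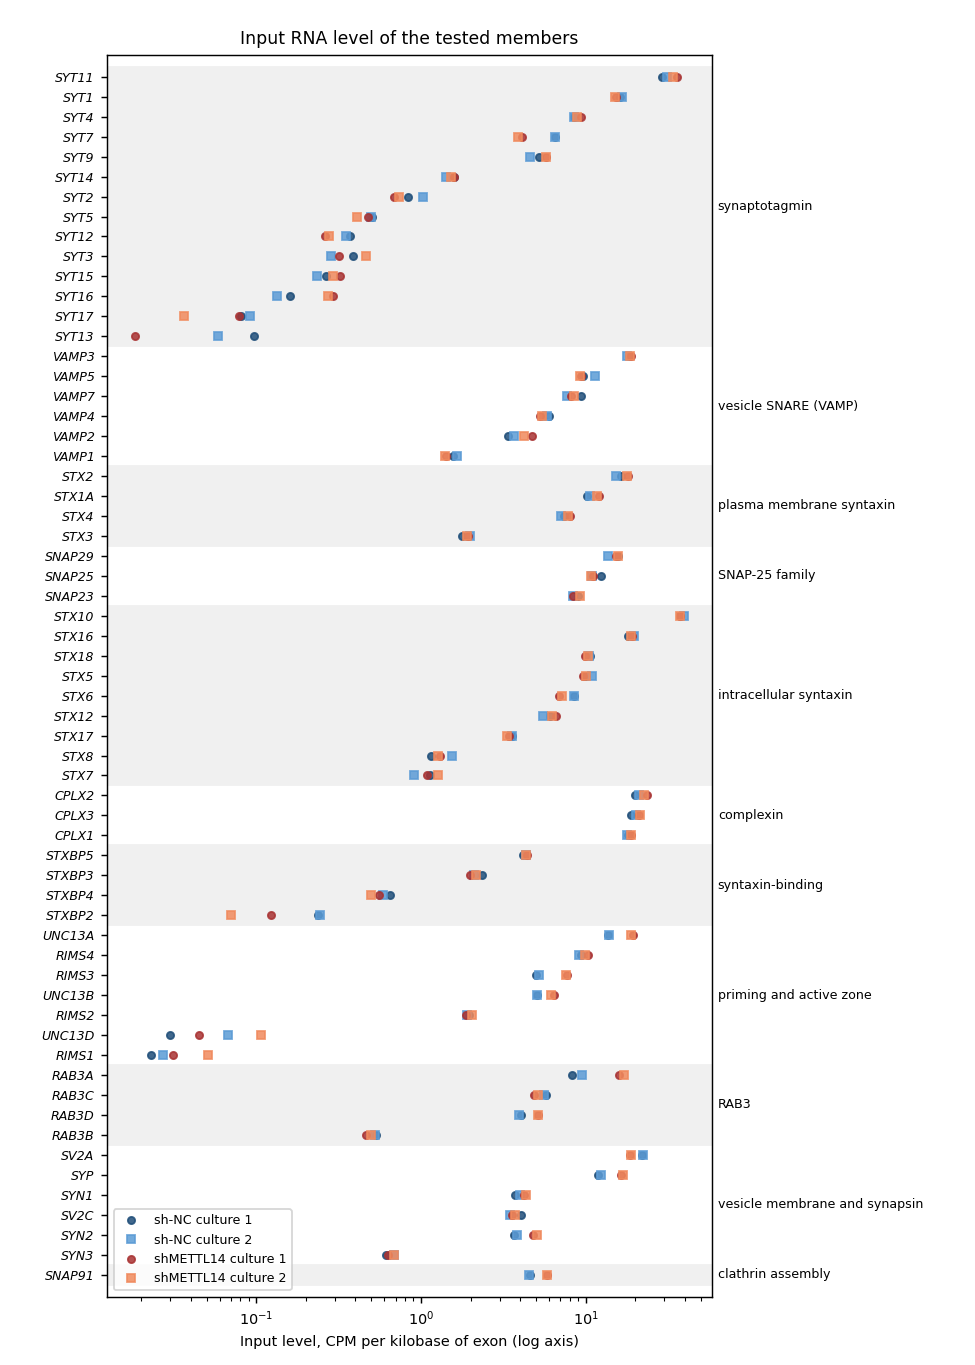
Input level of 61 of the tested genes by role, as CPM per kilobase of exon on a log axis, with 1 point per culture. STX10, at 38.6 CPM per kilobase in sh-NC, lies farthest to the right. RIMS1, SYT13 and SYT17 lie below 0.1 in every culture drawn, and UNC13D lies at 0.0301 to 0.107. The shMETTL14 culture 2 of SYT13 had 0 counts and is not drawn.

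The other 10 genes were too low to test in the inputs. SYT10 and CPLX4 had no count in any library, which allows a level of up to 0.0635 to 0.0937 CPM depending on the library (3 counts, counting error only). STX11, STX19, SYT6, SYT8, STXBP6 and SV2B had 0 to 7 counts per library, UNC13C had 4 to 16, and VAMP8, a vesicle SNARE of endosomes and secretory granules of non-neuronal cells, had input counts of 8 and 6 for sh-NC against 4 and 14 for shMETTL14. VAMP8 alone of these passed the filter of the fit over all 8 libraries, which tested 64 of the genes.

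The first comparison asked how RNA levels differed between the arms in the inputs. Of the 63 genes tested, 23 changed, 16 up and 7 down, which is 36.5% of them against 24% of all 22245 genes tested (11.7% higher and 12.3% lower). These genes were more abundant than most, and among genes of at least 10 CPM, a level chosen after the values were seen, the share was 40.4% of 47 against 39.4% of all genes, so near the background. Without SYT13 and UNC13D, which reached the level of the count filter in both cultures of only 1 arm, 22 of 61 were called, 16 up and 6 down, also a choice made after the values were seen. By direction at 10 CPM or more, 31.9% of the 47 rose against 19.2% of all genes, and 8.51% fell against 20.2%. These shares were not tested against each other, since members of one pathway are not independent. The median log2 fold change was 0.04 over the 63 genes and 0.00 over all genes.

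Changes were small in most cases: 13 of the 16 rises were under 0.55 on the log2 scale. With each culture left out in turn, 10 of the 23 stayed past the threshold in every fit, namely RAB3A, RIMS3, UNC13A, UNC13B, SYP, SNAP91 and SYT16, which rose, and SYT7, SV2A and STX6, which fell. Without shMETTL14 culture 2, only these 10 of the 23 passed. With 2 cultures against 2, an exact permutation test of a single gene cannot go below p = 0.333, so all calls rest on the spread that edgeR estimates over many genes.

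**Figure D2:**
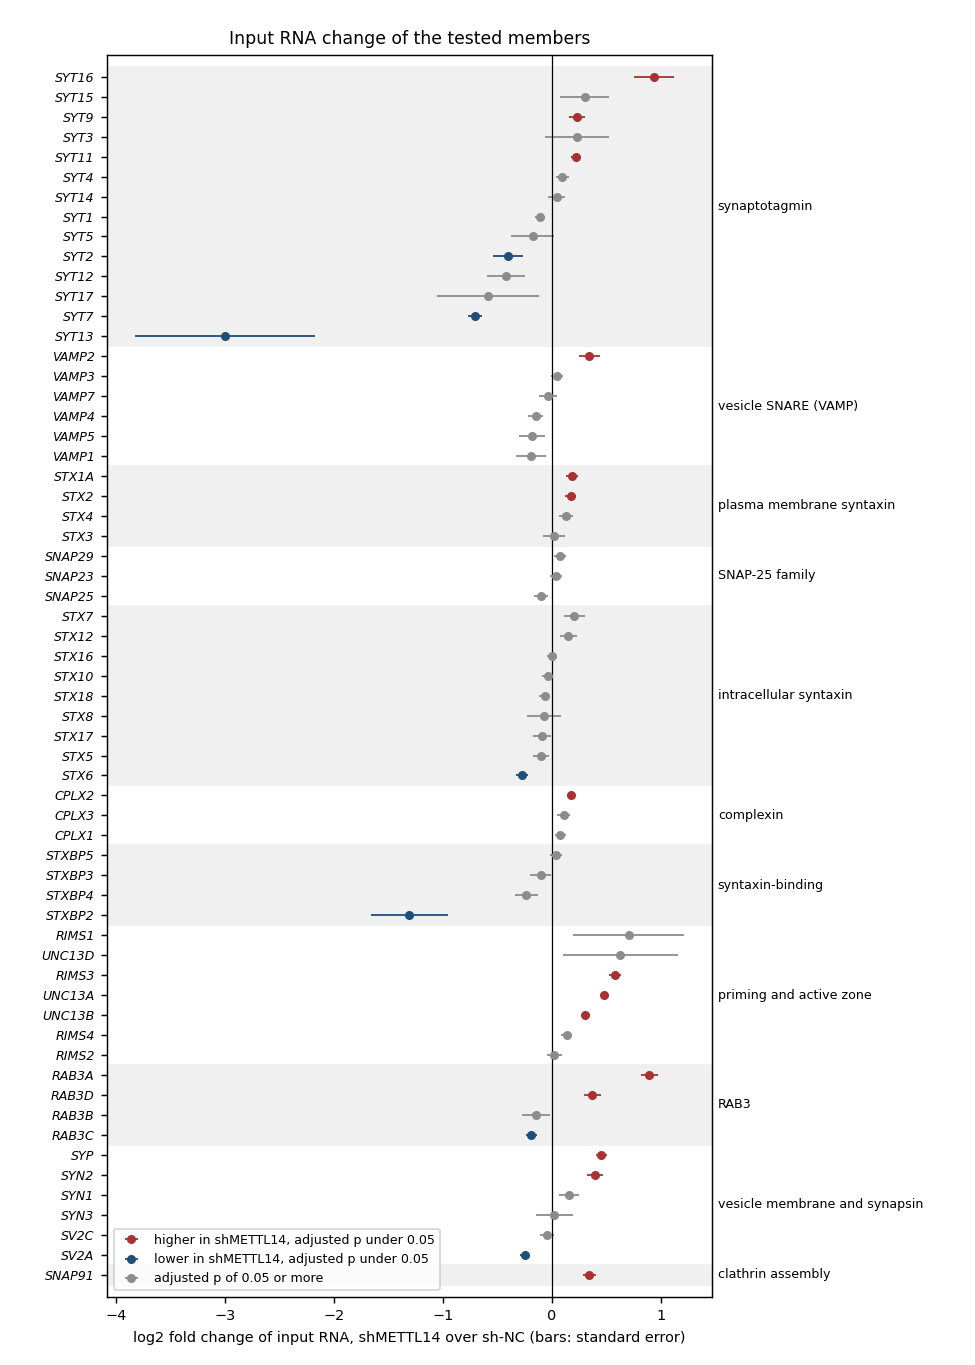
Log2 fold change of input RNA, shMETTL14 over sh-NC, for 61 of the tested genes by role, with standard errors (n = 2 cultures per arm). The 15 red points lie to the right of 0 and the 7 blue ones to the left; SYT13, at -2.999, has a wide bar, rests on 0 to 18 counts per input and was tested only because of its sh-NC counts.

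Among the SNAREs of fusion, STX1A, STX2 and VAMP2 rose while SNAP25 did not pass the test. STX1A, the syntaxin of synaptic release, went from 37.8 and 39.5 CPM to 44.6 and 43.3 CPM from sh-NC to shMETTL14. Both shMETTL14 cultures were above both sh-NC cultures, by a small margin (log2 fold change 0.19, standard error 0.0572, edgeR adjusted p = 0.0182), and the call was lost in DESeq2, where the adjusted p was 0.0618. Its exons share 17.9% of their bases with WBSCR22 on the opposite strand, whose own log2 fold change was 0.07.

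STX2, a syntaxin of many secretory cells, had 60.7 and 57.4 CPM in the sh-NC inputs and 67.1 and 66.1 CPM in the shMETTL14 inputs (log2 fold change 0.18, standard error 0.0493, edgeR adjusted p = 0.0104), with no overlap of the arms. Its call did not hold with every culture left out, and its log2 fold change then ran from 0.13 to 0.22. STX3 and STX4, syntaxins of epithelial and other constitutive routes, gave log2 fold changes of 0.02 and 0.13 that did not pass (edgeR adjusted p = 0.916 and 0.158).

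SNAP25, on chromosome 20 from 10218830 to 10307418, had 41.7 and 36.7 CPM in the sh-NC inputs and 37.0 and 36.2 CPM in the shMETTL14 inputs. The higher sh-NC culture stood apart and the other lay within the range of the knockdown cultures (log2 fold change -0.10, standard error 0.0641, edgeR adjusted p = 0.306). Its ubiquitous relatives SNAP23 and SNAP29 gave 0.04 and 0.07 (edgeR adjusted p = 0.712 and 0.383) and were not called. The value of SNAP25 turned on 1 sh-NC culture: it was -0.002 without sh-NC culture 1, and -0.19, past the threshold, without sh-NC culture 2 (edgeR adjusted p = 0.0397).

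VAMP2 went from 11.1 and 11.97 CPM to 15.4 and 13.8 CPM, without overlap (log2 fold change 0.34, standard error 0.0962, edgeR adjusted p = 0.0102). It was past the threshold in only 1 of the 4 fits that left out a culture, and 13.2% of its exonic bases lie in RP11-599B13.6 of the same strand. VAMP1, the other neuronal form, had 5.59 and 5.96 CPM in the sh-NC inputs and 5.09 and 5.03 CPM in the shMETTL14 inputs (log2 fold change -0.19, standard error 0.137, edgeR adjusted p = 0.361). VAMP3, VAMP4, VAMP5 and VAMP7 did not pass either, with log2 fold changes from -0.18 to 0.05. Of 6 vesicle SNAREs tested, VAMP2 was the 1 that changed, or 16.7%, against 24% of all genes.

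The complexins moved little. CPLX2 had 143 and 149 CPM in the sh-NC inputs and 168 and 161 CPM in the shMETTL14 inputs (log2 fold change 0.18, standard error 0.0394, edgeR adjusted p = 0.00169). CPLX1 had 43.5 and 42.9 CPM in the sh-NC inputs and 45.9 and 45.5 CPM in the shMETTL14 inputs and was not called (log2 fold change 0.08, standard error 0.0545, edgeR adjusted p = 0.328), nor was CPLX3, at 0.11 (edgeR adjusted p = 0.188).

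Of the syntaxin-binding genes, STXBP2, the Munc18 form of immune and epithelial secretion, fell. It had low input counts of 49 and 51 for sh-NC against 30 and 17 for shMETTL14 (log2 fold change -1.31, standard error 0.353, edgeR adjusted p = 0.00769), and DESeq2 gave it no adjusted p. Of its exonic bases, 16.4% lie in CTD-3214H19.4 of the same strand, which had 12978 counts over the 8 libraries. STXBP3, STXBP4 and the tomosyn gene STXBP5 did not pass, at -0.10, -0.23 and 0.04.

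Of the 14 synaptotagmins tested, 3 rose and 3 fell, or 42.9%, against 24% of all genes and 39.4% of those of at least 10 CPM. The falls include SYT13, from whose call nothing is read (below), so the share is not read as a result about the family. SYT1 had 104 and 108 CPM in the sh-NC inputs and 98.8 and 97.4 CPM in the shMETTL14 inputs, lower in both knockdown cultures and just short of the threshold (log2 fold change -0.11, standard error 0.0419, edgeR adjusted p = 0.0550). With the input contrast taken from all 8 libraries, its adjusted p was 0.0400. SYT11, a synaptotagmin that does not bind calcium, rose from 152 and 163 CPM to 187 and 179 CPM (log2 fold change 0.22, standard error 0.0405, edgeR adjusted p = 0.000213). SYT9, a calcium sensor, rose from 24.7 and 21.6 CPM to 27.1 and 27.2 CPM (log2 fold change 0.23, standard error 0.0740, edgeR adjusted p = 0.0246). The call of SYT9 held in only 6 of 11 alternative settings, and with each culture left out its log2 fold change ran from 0.13 to 0.33.

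SYT7, a high-affinity calcium sensor of slow release and of dense-core vesicle fusion, had the clearest fall. It lies on chromosome 11 from 61515313 to 61581148, and had 38.8 and 38.8 CPM in the sh-NC inputs and 24.4 and 23.1 CPM in the shMETTL14 inputs. The cultures of an arm differed by less than 2 CPM while the arms were about 15 CPM apart (log2 fold change -0.71, standard error 0.0643, edgeR adjusted p = 9.72e-09). Its share of the summed synaptotagmin level per kilobase went from 9.36% and 9.14% to 5.52% and 5.41%.

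SYT2, the calcium sensor of fast release in hindbrain and motor synapses, had 6.53 and 8.04 CPM in the sh-NC inputs and 5.34 and 5.71 CPM in the shMETTL14 inputs (log2 fold change -0.40, standard error 0.136, edgeR adjusted p = 0.0339). Of its exonic bases 27.2% lie in the opposite-strand gene PPP1R12B, which had 11845 counts over all libraries to 1782 of SYT2, and DESeq2 did not call it (adjusted p = 0.124). The 2 synaptotagmins with the largest fold changes were both rare. SYT16 had input counts of 84 and 70 for sh-NC against 180 and 165 for shMETTL14 (log2 fold change 0.94, standard error 0.183, edgeR adjusted p = 0.000390). SYT13 had input counts of 18 and 11 for sh-NC against 4 and 0 for shMETTL14. It was tested only because of its sh-NC counts, which favoured a fall, so nothing is read from its call, and without shMETTL14 culture 2 its adjusted p was 0.198.

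All 7 tested priming and active zone genes had log2 fold changes above 0, with a median of 0.48, against 50.4% of all genes above 0, and 3 rose (42.9%, against 11.7% of all genes and 19.2% of those of at least 10 CPM). The values of RIMS1 and UNC13D among them rest on 8 to 33 counts per input. UNC13D was tested only because of its shMETTL14 counts, which favoured a rise, so nothing is read from its sign. The count of 7, the median and the share include it. UNC13A (Munc13-1), which opens syntaxin for SNARE assembly, lies on chromosome 19 from 17601328 to 17688365. It had 153 and 154 CPM in the sh-NC inputs and 217 and 211 CPM in the shMETTL14 inputs, a rise of 1.39-fold that far exceeded the spread of either arm (log2 fold change 0.48, standard error 0.0366, edgeR adjusted p = 5.91e-10). UNC13B (Munc13-2) had 91.3 and 90.7 CPM in the sh-NC inputs and 115 and 111 CPM in the shMETTL14 inputs (log2 fold change 0.31, standard error 0.0421, edgeR adjusted p = 4.89e-06). RIMS3, a short RIM protein of the active zone, had 36.1 and 38.0 CPM in the sh-NC inputs and 55.9 and 54.6 CPM in the shMETTL14 inputs (log2 fold change 0.58, standard error 0.0552, edgeR adjusted p = 2.26e-08).

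RIMS4, also a short RIM, had 48.7 and 47.6 CPM in the sh-NC inputs and 53.9 and 51.8 CPM in the shMETTL14 inputs and did not pass (log2 fold change 0.14, standard error 0.0527, edgeR adjusted p = 0.0647). RIMS2 gave 0.02 (edgeR adjusted p = 0.867). RIMS1, the classical RAB3 effector of the active zone, was almost not expressed, with input counts of 10 and 12 for sh-NC against 16 and 26 for shMETTL14 (log2 fold change 0.71, standard error 0.511, edgeR adjusted p = 0.364), and UNC13D, the Munc13 of immune granules, had input counts of 8 and 18 for sh-NC against 14 and 33 for shMETTL14 (log2 fold change 0.63, standard error 0.527, edgeR adjusted p = 0.446). With RIMS3 higher and RIMS4 not called, the share of RIMS3 in the RIMS level per kilobase went from 30.6% and 32.2% to 38.6% and 38.5%.

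The promoter of UNC13A is shown because it had the highest sh-NC level per kilobase among the genes that rose and stayed called with any culture left out, and that of SYN1 beside it because these were the 2 of 58 genes with a promoter in the RefSeq table that hold the letters TTCAGCACC. That run and GGACAGC are the ends of the binding sequence of REST, a repressor of neuronal genes. The windows are on GRCh38.p14 from RefSeq, both from the reverse strand and printed 5′ to 3′, UNC13A from chr19:17688335-17688604 (250 bases before the start to 20 after it) and SYN1 from chrX:47619858-47620107 (250 bases before the start). Capitals mark TTCAGCACC and GGACAGC or its first letters GGACAG (GGTGCTGAA and GCTGTCC where they lie on the other strand), CACGTG in UNC13A, and TGACGTCA, the letters of the cyclic AMP response element, in SYN1.
UNC13A: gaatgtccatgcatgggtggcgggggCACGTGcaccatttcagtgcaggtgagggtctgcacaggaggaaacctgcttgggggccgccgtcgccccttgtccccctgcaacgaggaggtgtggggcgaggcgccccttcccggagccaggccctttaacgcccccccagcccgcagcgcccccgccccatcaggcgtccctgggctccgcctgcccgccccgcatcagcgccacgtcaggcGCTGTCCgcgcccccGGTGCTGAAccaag
SYN1: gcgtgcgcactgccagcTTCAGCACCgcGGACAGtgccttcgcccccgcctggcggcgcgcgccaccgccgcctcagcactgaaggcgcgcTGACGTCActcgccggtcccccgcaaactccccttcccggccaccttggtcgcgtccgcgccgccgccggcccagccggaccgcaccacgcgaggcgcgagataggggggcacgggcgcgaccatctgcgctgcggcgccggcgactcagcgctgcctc
Searched on both strands, TTCAGCACC was in 0.376% of all 35116 promoter windows of 300 bases, GGACAGC in 6.03% and GGACAG in 20.5%. In the 250 bases before the start, CACGTG was in 6.34% of all promoters and in 10 of the 58 (17.2%), and TGACGTCA in 1.65% of all and in 3 of the 58. In SYN1 the run TTCAGCACC began at position -233 from the start and GGACAG at -222. In UNC13A both lay on the other strand, GGACAGC from position -9 and TTCAGCACC from position 7. A match is a description of letters, not of binding, and the motifs and promoters were chosen after the values were seen.

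The RAB3 GTPases, which bring vesicles to the release site through RIMS proteins, changed in both directions. RAB3A, the main form of neurons, lies on chromosome 19 from 18196784 to 18204074 and had 14.9 and 17.3 CPM in the sh-NC inputs and 29 and 31.0 CPM in the shMETTL14 inputs. This was the largest rise of any gene of the set with over 200 counts per library, 1.86-fold, and the arms were far apart compared with the cultures of an arm (log2 fold change 0.90, standard error 0.0793, edgeR adjusted p = 6.45e-09). With each culture left out the log2 fold change ran from 0.79 to 1.00. RAB3A shares 9.08% of its exonic bases with MPV17L2 of the opposite strand, whose log2 fold change was -0.12 (edgeR adjusted p = 0.481).

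RAB3D, a form known from exocrine and endocrine granules, rose from 17.9 and 17.3 CPM to 22.6 and 22.8 CPM (log2 fold change 0.37, standard error 0.0761, edgeR adjusted p = 0.000660). RAB3C, a neuronal form, fell from 55.3 and 54.1 CPM to 46.7 and 49.4 CPM (log2 fold change -0.19, standard error 0.0530, edgeR adjusted p = 0.0110). The call of RAB3C did not hold with every culture left out, and its log2 fold change then ran from -0.23 to -0.15. RAB3B had 6.87 and 6.76 CPM in the sh-NC inputs and 5.93 and 6.41 CPM in the shMETTL14 inputs and was not called (log2 fold change -0.14, standard error 0.128, edgeR adjusted p = 0.475). The make-up of the family shifted accordingly: RAB3A went from 44.4% and 48.6% of the RAB3 level per kilobase under sh-NC to 60.5% and 61.2% under shMETTL14, and RAB3C went from 30.9% and 28.6% to 18.3% and 18.4%.

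The RAB3A promoter is shown because its rise was the largest among the well-counted genes of the set. The window is chr19:18204043-18204292 on the reverse strand (GRCh38.p14, RefSeq, 250 bases up to the start, 5′ to 3′), and capitals mark CGTCA, the reverse complement of TGACG, the core of the cyclic AMP response element.
RAB3A: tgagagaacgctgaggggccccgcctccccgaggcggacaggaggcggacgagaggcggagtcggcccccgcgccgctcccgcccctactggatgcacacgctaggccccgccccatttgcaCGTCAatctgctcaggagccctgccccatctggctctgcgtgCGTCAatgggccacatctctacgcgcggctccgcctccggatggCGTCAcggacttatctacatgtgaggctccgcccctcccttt
The 3 copies began at positions -128, -86 and -42 from the start. Searched on both strands of the same window, TGACG was in 21.2% of all promoters and in 18 of the 58 (31.0%), and 3 or more copies were in 1.01% of all and in 4 of the 58, RAB3A, STX4, STXBP2 and STXBP3. Of these, RAB3A rose, STXBP2 fell and the others were not called.

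Proteins of the vesicle itself were mixed. SYP, a membrane protein of small synaptic vesicles and a routine marker of neuroendocrine tumours, rose from 61.6 and 64.6 CPM to 85.7 and 87.4 CPM (log2 fold change 0.46, standard error 0.0466, edgeR adjusted p = 6.58e-08). SV2A, a transporter-like vesicle protein on chromosome 1 from 149903318 to 149917882, fell from 107 and 108 CPM to 89.3 and 91.6 CPM (log2 fold change -0.25, standard error 0.0421, edgeR adjusted p = 9.24e-05), and its paralog SV2C gave -0.04 (edgeR adjusted p = 0.688). SYP and SV2A thus changed in opposite directions, each in every fit with a culture left out.

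The synapsins tether vesicles in the reserve pool. SYN2 had 20.9 and 21.7 CPM in the sh-NC inputs and 27.2 and 28.9 CPM in the shMETTL14 inputs (log2 fold change 0.40, standard error 0.0711, edgeR adjusted p = 0.000167). SYN1 had 11.97 and 12.8 CPM in the sh-NC inputs and 13.6 and 14.0 CPM in the shMETTL14 inputs, higher in both knockdown cultures but not past the test (log2 fold change 0.16, standard error 0.0930, edgeR adjusted p = 0.255), and SYN3 gave 0.02 (edgeR adjusted p = 0.951). SNAP91 (AP180), which helps to retrieve vesicle membrane with clathrin, rose from 30.8 and 30.1 CPM to 38.5 and 38.8 CPM (log2 fold change 0.35, standard error 0.0605, edgeR adjusted p = 0.000122).

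**Figure D3:**
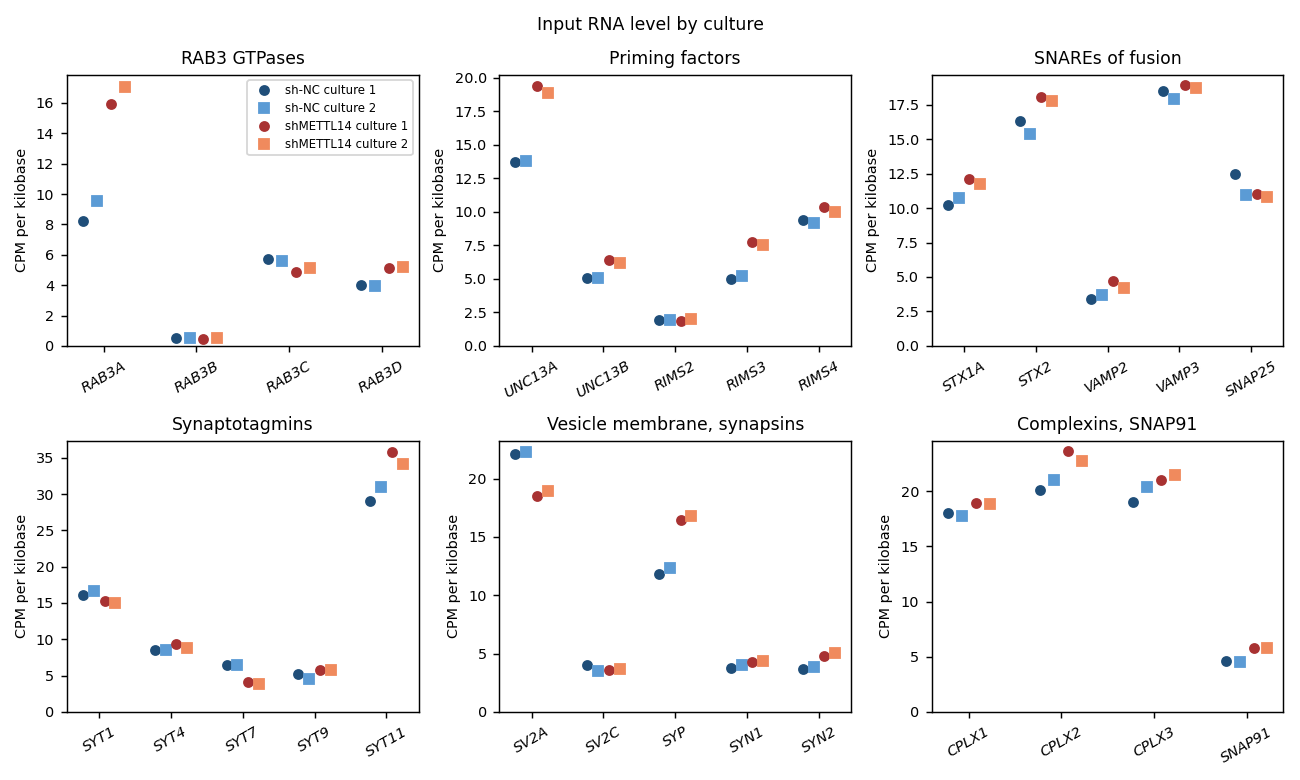
Input level of 28 of the genes in CPM per kilobase, with 1 point per culture and axes from 0. RAB3A (about 8 to 10 in sh-NC, 16 to 17 in shMETTL14), UNC13A, RIMS3 and SYP lie higher in both shMETTL14 cultures, SYT7 and SV2A lie lower, and SNAP25, CPLX1 and SYT1 lie near their sh-NC values.

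Of the 9 syntaxins of intracellular membranes, 1 changed, or 11.1%, against 24% of all genes. This was STX6, a syntaxin of the trans-Golgi network and endosomes. It fell from 55.0 and 54.9 CPM to 44.6 and 46.5 CPM (log2 fold change -0.27, standard error 0.0526, edgeR adjusted p = 0.000387). The others, STX5 of the Golgi, STX7, STX8 and STX12 of endosomes, STX10 and STX16 of endosome-to-Golgi traffic, STX17 of autophagosomes and STX18 of the endoplasmic reticulum, ran from -0.10 to 0.21 and were not called. STX16 shares 28.4% of its bases with STX16-NPEPL1.

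The second comparison asked how far RNA of these genes was pulled down by the m6A antibody. Enrichment is given as IP over input, the ratio of a gene's IP CPM to its input CPM within a culture, where 1 is the average gene and not an absence of m6A. Within sh-NC, 21 of the 64 genes tested were above their input and 17 below, against 58.9% of all 22953 genes (29.1% above and 29.8% below). In shMETTL14, 19 were above and 19 below, against 58% of all genes (28.9% and 29.1%). The share of 59.4% in each arm was thus that of genes at large.

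The split depended on the scaling. By library size alone, 14 genes were above and 25 below in sh-NC, and 14 above and 24 below in shMETTL14. With factors from the 25% of genes of lowest enrichment, 55 were above and 0 below in sh-NC, and 54 above and 1 below in shMETTL14. The latter scaling raised the median of all genes to 0.92 and 0.80 on the log2 scale, so above and below are meant relative to the average gene in what follows.

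Most gene families held members on both sides of the average. All 3 SNAP-25 family genes and all 3 tested complexins were above input in sh-NC, whereas STXBP2 and STXBP5 were below and STXBP3 and STXBP4 were not called. SNAP25 had ratios of 1.20 and 1.52 for sh-NC against 1.48 and 1.37 for shMETTL14, or on the log2 scale 0.43 in sh-NC (standard error 0.0626, edgeR adjusted p = 5.57e-08) and 0.51 in shMETTL14 (standard error 0.0629, edgeR adjusted p = 6.46e-10). CPLX1 had 1.42 and 1.55 for sh-NC against 1.47 and 1.52 for shMETTL14, or on the log2 scale 0.57 in sh-NC (standard error 0.0538, edgeR adjusted p = 3.15e-13) and 0.58 in shMETTL14 (standard error 0.0530, edgeR adjusted p = 7.95e-14). CPLX3 and CPLX2 had log2 values of 0.59 in sh-NC and 0.46 in shMETTL14, and 0.24 in sh-NC and 0.17 in shMETTL14. Under scaling by library size alone CPLX2 was at 0.05 in shMETTL14, short of the threshold. The values of CPLX3 are subject to the 99.7% of exonic bases it shares with RP11-414J4.2.

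STX18 had the highest enrichment of a well-counted gene, with ratios of 1.50 and 1.58 for sh-NC against 1.67 and 1.58 for shMETTL14, or on the log2 scale 0.62 in sh-NC (standard error 0.0490, edgeR adjusted p = 6.13e-16) and 0.70 in shMETTL14 (standard error 0.0490, edgeR adjusted p = 1.01e-17). SYT9 had 1.34 and 1.55 for sh-NC against 1.30 and 1.27 for shMETTL14, or on the log2 scale 0.52 in sh-NC (standard error 0.0702, edgeR adjusted p = 6.40e-09) and 0.36 in shMETTL14 (standard error 0.0684, edgeR adjusted p = 9.44e-06). VAMP8 ranked first, but on input counts of 8 and 6 for sh-NC against 4 and 14 for shMETTL14 and IP counts of 23 and 22 for sh-NC against 20 and 30 for shMETTL14, and its call was lost in each arm when 1 of its cultures was left out. UNC13A, at 1.26 and 1.29 for sh-NC against 1.14 and 1.17 for shMETTL14, was also above input, by 0.35 in sh-NC (standard error 0.0394, edgeR adjusted p = 6.82e-11) and 0.21 in shMETTL14 (standard error 0.0384, edgeR adjusted p = 7.12e-06) on the log2 scale.

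At the other end were RAB3A and RIMS3, both among the genes whose RNA rose most. RAB3A had ratios of 0.518 and 0.486 for sh-NC against 0.576 and 0.522 for shMETTL14, or on the log2 scale -1.01 in sh-NC (standard error 0.0971, edgeR adjusted p = 5.60e-13) and -0.87 in shMETTL14 (standard error 0.0836, edgeR adjusted p = 5.49e-13), and RIMS3 0.522 and 0.474 for sh-NC against 0.464 and 0.465 for shMETTL14, or on the log2 scale -1.004 in sh-NC (standard error 0.0672, edgeR adjusted p = 1.64e-18) and -1.11 in shMETTL14 (standard error 0.0630, edgeR adjusted p = 4.12e-21). SYN1 had 0.486 and 0.601 for sh-NC against 0.489 and 0.535 for shMETTL14, or on the log2 scale -0.90 in sh-NC (standard error 0.118, edgeR adjusted p = 3.68e-09) and -0.96 in shMETTL14 (standard error 0.116, edgeR adjusted p = 4.47e-10). STXBP2 and SYT13 were lower still in sh-NC, but on 0 to 51 counts per library. In shMETTL14 SYT13 was at 0.92 on the log2 scale, and it was not called in either arm.

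The release core lay between these. STX1A was below input, with ratios of 0.791 and 0.701 for sh-NC against 0.858 and 0.834 for shMETTL14, or on the log2 scale -0.42 in sh-NC (standard error 0.0635, edgeR adjusted p = 1.10e-07) and -0.24 in shMETTL14 (standard error 0.0612, edgeR adjusted p = 0.000638), and so was VAMP2, at 0.813 and 0.756 for sh-NC against 0.604 and 0.764 for shMETTL14, or on the log2 scale -0.35 in sh-NC (standard error 0.107, edgeR adjusted p = 0.00396) and -0.55 in shMETTL14 (standard error 0.104, edgeR adjusted p = 7.77e-06). SYT1 and VAMP1 did not differ from the average gene by the test in either arm, with log2 values of -0.01 in sh-NC and -0.08 in shMETTL14, and -0.19 in sh-NC and 0.09 in shMETTL14. SV2A was above input in both arms (0.20 in sh-NC and 0.15 in shMETTL14 on the log2 scale) and SYP in sh-NC (0.18 in sh-NC and 0.06 in shMETTL14), though under scaling by library size alone both were short of the threshold in sh-NC and SV2A in shMETTL14 too.

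**Figure D4:**
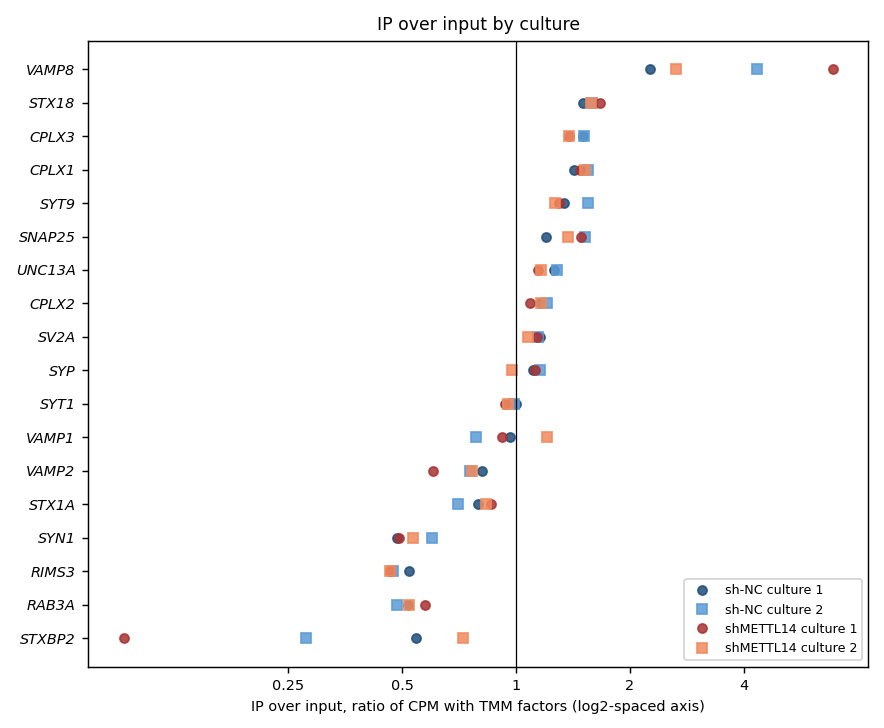
IP over input of 18 named genes on a log2-spaced axis, with 1 point per culture and the average gene at 1. STX18, CPLX1, CPLX3 and SYT9 lie to the right of 1 in all cultures, and RAB3A, RIMS3 and SYN1 near 0.5. The points of the arms overlap for some genes, such as SNAP25, and lie apart for others, such as UNC13A. SYT13 and RIMS1 are left out for low counts.

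Enrichment in these libraries rose with exon length over all genes: with the longest exon under 1000 bases the median log2 IP over input in sh-NC was -0.20, and with 3000 bases or more it was 0.12. The 64 genes did not follow this order, at 0.04 for 8 genes with a short longest exon, -0.10 for 27 genes of 1000 to under 3000 bases and -0.01 for 29 of 3000 or more. Spearman's rho across genes was 0.01 for the 64 and 0.18 for all 22953, given as a description since genes share libraries and are not replicates.

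The third comparison asked whether IP over input changed between the arms. None of the 64 genes was called by edgeR at an adjusted p under 0.05, against 1 of 22953 genes (0.00436%), and none by DESeq2. At an unadjusted p under 0.05 there were 3 (STX1A higher, UNC13A and STX17 lower) against 6.34% of all genes (3.03% higher and 3.31% lower). The median log2 change was -0.05 over the 64 genes and -0.00 over all genes. A loss of m6A shared evenly by all transcripts is taken up by the scaling and would not show here.

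The 5 genes of lowest p were UNC13A, STX17, STX1A, UNC13B and STX6. UNC13A went from ratios of 1.26 and 1.29 to 1.14 and 1.17, without overlap (log2 change -0.14, standard error 0.0550, unadjusted p = 0.0133 and adjusted p = 0.679 from edgeR). STX17 had 0.971 and 1.05 for sh-NC against 0.802 and 0.858 for shMETTL14 (log2 change -0.28, standard error 0.125, unadjusted p = 0.0296 and adjusted p = 0.720 from edgeR). STX1A had the opposite sign (log2 change 0.18, standard error 0.0882, unadjusted p = 0.0494 and adjusted p = 0.783 from edgeR), as given by the ratios above. UNC13B had 0.839 and 0.887 for sh-NC against 0.794 and 0.788 for shMETTL14 (log2 change -0.12, standard error 0.0648, unadjusted p = 0.0625 and adjusted p = 0.794 from edgeR), and STX6 0.952 and 0.951 for sh-NC against 0.925 and 0.797 for shMETTL14 (log2 change -0.15, standard error 0.0805, unadjusted p = 0.0719 and adjusted p = 0.805 from edgeR). The input libraries enter both this comparison and that of RNA levels. The lower ratios of UNC13A and UNC13B in shMETTL14, which were not called, are thus not independent of their rise in input.

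How closely a change was limited differed between genes, with standard errors from 0.0550 for UNC13A to 1.37 for the rare SYT13. RAB3A, whose input RNA rose most among the well-counted genes, had log2 change 0.14, standard error 0.129, unadjusted p = 0.288 and adjusted p = 0.910 from edgeR, and SYT7 had log2 change -0.19, standard error 0.104, unadjusted p = 0.0820 and adjusted p = 0.810 from edgeR. For SYP the log2 change was -0.11 and for SV2A -0.05, with standard errors of 0.0736 and 0.0616. A p that misses the threshold does not show that enrichment was equal.

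Other genes of the pathway were read from 6 lists of 85 genes, of which 77 were tested in the inputs. In all, 20 rose and 8 fell, or 36.4% of the 77. Over all genes 24% were called (11.7% higher and 12.3% lower), and among genes of at least 10 CPM 39.4% (19.2% higher and 20.2% lower). The 20 include STXBP5L, from whose call nothing is read (below). The shares of the lists were not tested against these. In the scaffold of the active zone 8 of 13 tested genes (61.5%) were higher and none lower. Among them PCLO (piccolo) had 84.6 and 77.5 CPM in the sh-NC inputs and 115 and 117 CPM in the shMETTL14 inputs (log2 fold change 0.52, standard error 0.0457, edgeR adjusted p = 6.42e-09) and BSN (bassoon) 36.3 and 36.8 CPM in the sh-NC inputs and 48.9 and 51.0 CPM in the shMETTL14 inputs (log2 fold change 0.45, standard error 0.0561, edgeR adjusted p = 1.37e-06). PPFIA4, a liprin-alpha, had 18.5 and 16.9 CPM in the sh-NC inputs and 28.1 and 27.4 CPM in the shMETTL14 inputs (log2 fold change 0.65, standard error 0.0748, edgeR adjusted p = 4.09e-07), and ERC1, RIMBP2, PPFIA1, PPFIA3 and LIN7B rose by 0.20, 0.17, 0.10, 0.17 and 0.42.

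Other calcium and RAB effectors were split, with 3 higher and 4 lower of 16 (43.75%, against 24% of all genes and 39.4% of those of at least 10 CPM). CADPS (CAPS1), a priming factor of dense-core vesicles, had 40.9 and 38.5 CPM in the sh-NC inputs and 58.6 and 54.6 CPM in the shMETTL14 inputs (log2 fold change 0.51, standard error 0.0566, edgeR adjusted p = 2.17e-07), and DOC2B and RPH3A, C2-domain proteins, rose by 0.48 and 0.54. RAB27A and RAB27B, GTPases of secretory granules, fell from 18.9 and 20.4 CPM to 13.7 and 13.8 CPM and from 21.0 and 19.1 CPM to 13.8 and 14.7 CPM (log2 fold change -0.51, standard error 0.0839, edgeR adjusted p = 5.44e-05, and log2 fold change -0.49, standard error 0.0849, edgeR adjusted p = 0.000103). SYTL4 and SYTL5, of a family of RAB27 effectors, fell by 0.54 and 1.11 on the log2 scale (edgeR adjusted p = 0.00614 and 0.0366), SYTL5 on 20 to 48 counts per input. The other genes of the SYTL family, SYTL1, SYTL2 and SYTL3, gave 0.07, 0.15 and -0.15 and were not called.

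The shares in the next 3 lists stand against 24% of all genes and 39.4% of those of at least 10 CPM. Of the other vesicle membrane genes, 3 rose and 2 fell of 15 (33.3%). SVOP, an SV2-related transporter, had 4.92 and 5.69 CPM in the sh-NC inputs and 9.42 and 8.18 CPM in the shMETTL14 inputs (log2 fold change 0.73, standard error 0.131, edgeR adjusted p = 0.000165), SCAMP5 rose by 0.38 and the synuclein gene SNCB by 0.52, whereas SYPL1, a ubiquitous relative of SYP, had 8.39 and 8.41 CPM in the sh-NC inputs and 5.93 and 5.61 CPM in the shMETTL14 inputs (log2 fold change -0.54, standard error 0.123, edgeR adjusted p = 0.00189) and SCAMP1 changed by -0.37. Of 18 genes of vesicle endocytosis 27.8% were called. BIN1, ITSN1 and CLTB rose by at most 0.16, and ITSN2 and AP2B1 changed by -0.19 and -0.11. Other SNAREs gave 3 higher and none lower of 11 (27.3%). One of the 3 was STXBP5L, a tomosyn, with input counts of 2 and 4 for sh-NC against 12 and 18 for shMETTL14, which was tested only because of its shMETTL14 counts, so nothing is read from its call. NSF and the SNAP adaptors NAPA, NAPB and NAPG, which take spent SNARE complexes apart, had no call and lay between -0.11 and 0.04. The change of IP over input was not called for any of the 77 genes, against 1 of all 22953 genes.

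**Figure D5:**
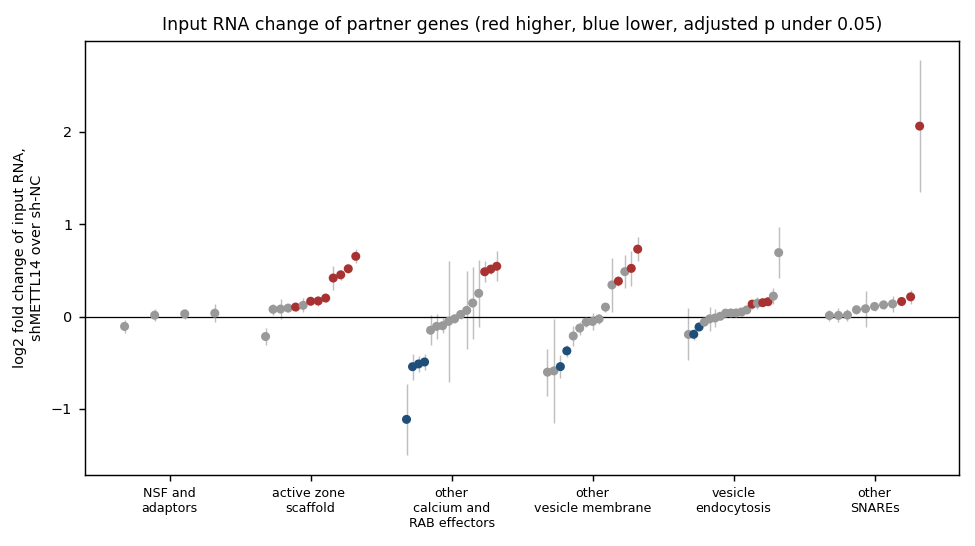
Log2 fold change of input RNA, shMETTL14 over sh-NC, for 77 tested partner genes in 6 lists, each point 1 gene with its standard error and genes sorted within a list. The active zone scaffold has 8 red points and no blue ones, NSF and its adaptors lie at 0, and the red point at 2.06 is STXBP5L, with 2 to 18 counts per input.

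Across the set, exons of 16 of the 73 genes share over 5% of their bases with another gene, 7 of the 23 called in the inputs among them. Without those 16, a choice made after the values were seen, 16 of 47 genes were called, 12 higher and 4 lower. Over all genes 24% were called (11.7% higher and 12.3% lower), and 39.4% of those of at least 10 CPM (19.2% higher and 20.2% lower). The shares were not tested against each other.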

How the data were processed

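Polyadenylated RNA was fragmented with zinc chloride, and stranded libraries with unique molecular identifiers were made from the IP and the input of each culture. The authors deposited raw counts per gene for all 8 libraries in 1 table. Their processing notes name Trimmomatic 0.36 and GRCh38; the aligner, the counter, its strand setting and the annotation are not given in the sources used here, so values of overlapping genes are uncertain.

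Here the deposited counts were tested by edgeR 4.0.16 in R 4.3.3 (filterByExpr, TMM factors, glmQLFit and glmQLFTest, Benjamini-Hochberg adjustment over all genes tested, threshold 0.05). RNA levels were compared in a fit of the 4 inputs, and IP over input and its change in 1 model of 8 libraries with 4 group means. A standard error is the size of the log2 fold change over the square root of F. Fits were tested on simulated data. The genes, roles, lists and tests were chosen with earlier results of these data known. Genes named are METTL14, core release genes, all that changed in the inputs, the 5 highest and 5 lowest in IP over input in sh-NC, the 5 lowest p-values of its change, the 5 highest and 3 lowest levels, and for the partner lists the 3 largest rises and falls; other names were added after values were seen, and some genes that the counts include are not reported here. Replicates of a group differed by more than sampling noise (chi-square per gene 2.39 to 3.85). The IP and the input of 1 culture share their RNA, and how these libraries deviated from the group means correlated by -0.019 and -0.008 across 22953 genes, and those of same-numbered inputs of the arms by -0.017. Alternatives were other scalings, filters, DESeq2 1.42.0, a replicate block and leaving out each culture. Promoters are from RefSeq, and figures were drawn with matplotlib 3.10.9.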

Additional observations from a re-analysis of the deposited data

How the results depend on the processing

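The count of genes called in the inputs was 23 under RLE factors, library size only and the replicate block alike, 24 with at least 10 counts in every library or with the contrast from all 8 libraries, and 18 with DESeq2, which gave no adjusted p for SYT13 and STXBP2. It was 12 (9 higher, 3 lower) with no filter beyond 1 read, 2 (both lower) with a log2 fold change of at least 1 in either direction, and 10 to 21 with a culture left out, the 10 without shMETTL14 culture 2. In those fits 1 arm has a lone culture, assumed to vary like the others. With the fold change minimum, 4 genes were called for IP over input in sh-NC and 3 in shMETTL14. Leaving out a culture gave 36 to 38 in sh-NC and 30 to 39 in shMETTL14. The replicate block gave 38 and 37, and it changed no call of a gene named here. The change of IP over input had 0 calls under every alternative run.

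No named gene changed sign except under factors from the least enriched genes, which move the average gene off 0. There, log2 IP over input in sh-NC was 0.039 for SYN1, 0.52 for STX1A and 0.58 for VAMP2, and in shMETTL14 0.57 for STX1A and 0.26 for VAMP2. By library size alone the median of all genes was -0.14 in sh-NC and -0.13 in shMETTL14. Precision is set by 2 cultures per arm, and for SYT13, STXBP2, RIMS1, UNC13D and VAMP8 by counts of at most 51 per library.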
